A study of Bos taurus with 6 samples.

Results

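L1CAM, PMP2 and NCAM1 are genes of nerve and Schwann cells whose expression was listed as different in muscle of the Angus and Luxi cattle breeds. They were chosen by symbol from the authors' deposited table of genes that passed a filter on the breed comparison, and they make up 3 of its 232 genes. Muscle came from 3 Angus cattle, a beef breed, and 3 Luxi cattle, a Chinese breed, all 18 months old and with no treatment named. Which muscle was taken, and from which sex, is not stated in the labels. The deposited values are means over the 3 animals of a breed, as mean read counts and as RPKM (reads scaled to gene length and library depth, a level that can be compared between genes). Reads per library were worked back from these means. A library is named here by its rank in depth within its breed (deepest, middle or shallowest), since its animal is not known. Recovered depth ran from 5429317 to 5736364 reads in Angus and from 5799075 to 6047229 reads in Luxi.

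Muscle is supplied by motor and sensory nerves whose axons are wrapped by Schwann cells, the glia of the peripheral nervous system. L1CAM and NCAM1 are cell surface proteins of the immunoglobulin superfamily that hold axons, Schwann cells and other cells together, and both also act as receptors that guide axon growth. PMP2 is a small fatty acid binding protein of the myelin sheath. L1CAM and PMP2 serve here as genes of nerve and myelin. NCAM1 is also made by muscle satellite cells, at the neuromuscular junction, by denervated or regenerating fibres and by natural killer cells.

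All 3 genes were higher in Angus, against 63.4% of the 232 listed genes. In the authors' deposited table L1CAM was 5.16-fold higher, PMP2 4.24-fold and NCAM1 2.10-fold. These ratios are the values by which the genes came to be listed, so they are given as a description and carry no test. Among the 122 genes that were higher in Angus and had reads in both breeds, L1CAM had the 20th and PMP2 the 25th largest ratio, while NCAM1 was 109th. The median ratio of those 122 genes was 2.67-fold. The smallest absolute log2 ratio in the table was 1.00, so by ratio NCAM1, at 1.07, stood just inside the listing and L1CAM (2.37) and PMP2 (2.08) farther in. By the authors' deposited FDR, which reached 9.67e-04 in the table, PMP2 (4.73e-04) was the nearest of the 3 to the limit. In bulk RNA of a whole tissue, fewer cells of a type and less RNA per cell cannot be told apart.

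The 3 genes were among the less abundant of the list. In the authors' deposited table, the Angus mean of NCAM1 was 5.17 RPKM and its Luxi mean 2.46 RPKM, those of PMP2 were 4.33 and 1.02 RPKM, and those of L1CAM 2.51 and 0.486 RPKM. The median level of the 232 genes, each taken in its higher breed, was 12.8 RPKM. The order of the 3 means was the same in both breeds, but it did not hold in every library. PMP2 was below L1CAM in the shallowest Angus library (0.984 against 1.93 or 1.97 RPKM). The same was seen in the deepest Luxi library (0.221 against 0.509 RPKM). In Angus the levels of NCAM1 and PMP2 differed by less than the spread of PMP2 between libraries, which had an SD of 3.19 RPKM (n = 3). The scatter of ratio against level shows the 3 genes on its left side.

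**Figure D1:**
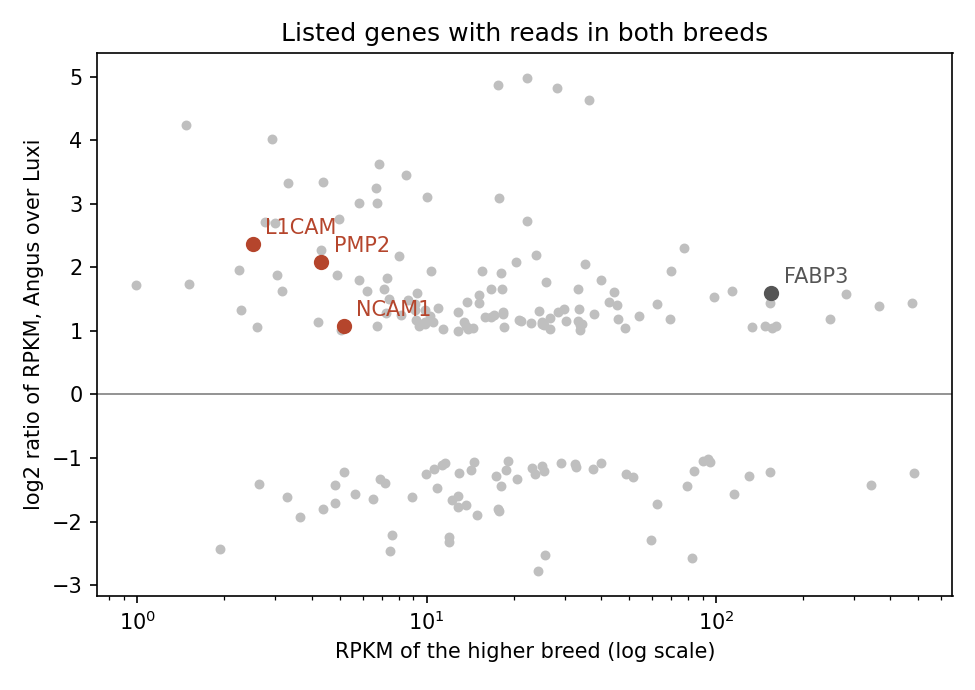
Log2 ratio of RPKM of Angus over Luxi (y axis) against the RPKM of the higher breed (x axis, log scale) for the listed genes with reads in both breeds, each point 1 gene. L1CAM (2.51 RPKM, log2 ratio 2.37), PMP2 (4.33 and 2.08) and NCAM1 (5.17 and 1.07) lie to the left of FABP3 (155 and 1.59).

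L1CAM (gene identifier 516017, a gene model of 4873 bases) had reads in all 6 libraries. The Luxi libraries held 15, 12 and 15 reads from deepest to shallowest, or 0.509, 0.418 and 0.531 RPKM. The Angus libraries had 2 solutions that differ by at most 2 reads in a library, either 103, 52 and 51 reads or 104, 50 and 52 reads. These correspond to 3.68 or 3.72 RPKM in the deepest, 1.91 or 1.84 in the middle and 1.93 or 1.97 in the shallowest Angus library. The deepest Angus library was the highest of the 6, the other two Angus libraries were close to each other, and every Angus library was above every Luxi library under either solution.

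The exact 95% Poisson interval of L1CAM ran from 1.45 to 4.27 RPM (RPKM without the scaling to gene length) in the highest Luxi library and started at 6.65 in the lowest Angus library, so the libraries closest to each other were also apart in counting error. The recovered mean was 2.51 ± 1.02 to 1.05 RPKM (SD, n = 3) in Angus and 0.486 ± 0.0598 RPKM (SD, n = 3) in Luxi. The coefficient of variation (SD over mean) in Luxi was 12.3%, below the 26.7% that counting alone gives at a mean of 14 reads. Of the 56 genes with a single solution in Luxi, 4 varied less. The authors' deposited p for L1CAM was 1.32e-10 and the FDR 7.69e-09. Without the deepest Angus library its log2 ratio was 1.97 to 1.98, the lowest value that leaving out a library gave.

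PMP2 (gene identifier 506062, 1498 bases) was spread unevenly within both breeds. The Angus libraries held 63, 39 and 8 reads from deepest to shallowest, or 7.33, 4.67 and 0.984 RPKM. The Luxi libraries held 2, 19 and 6 reads, or 0.221, 2.15 and 0.691 RPKM. The breeds overlapped: the shallowest Angus library was below the middle Luxi library, while the other two Angus libraries were above every Luxi library.

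The recovered mean of PMP2 was 4.33 ± 3.19 RPKM (SD, n = 3) in Angus and 1.02 ± 1.008 RPKM (SD, n = 3) in Luxi. The highest library was 7.45 times the lowest in Angus and 9.75 times the lowest in Luxi. The coefficient of variation was 73.7% in Angus and 98.7% in Luxi, against 16.5% and 33.3% from counting alone at these means. In Luxi 8 of the 56 genes with a single solution varied more than PMP2, and in Angus 36 of 82 did.

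The authors' deposited p for PMP2 was 1.74e-05 and the FDR 4.73e-04. For each of the 3 genes the deposited p was matched to within 0.599% by a 2-sided exact comparison of 2 Poisson counts, with each breed entered as 1 library at its mean count cut down to a whole number, so the spread between animals did not enter it. The log2 ratio of PMP2 was 2.08 with all libraries, 1.47 without the deepest Angus library and 3.25 without the middle Luxi library. It stayed above 1 whichever of the 6 libraries was left out. Of the 2 genes of nerve and myelin, L1CAM thus separated the breeds library by library and PMP2 did not. Over the 122 listed genes for which overlap was determined, higher in either breed, 41 (33.6%) had all Angus libraries above all Luxi libraries. In 23 all Luxi libraries were above all Angus libraries, and in 58 the libraries overlapped.

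**Figure D2:**
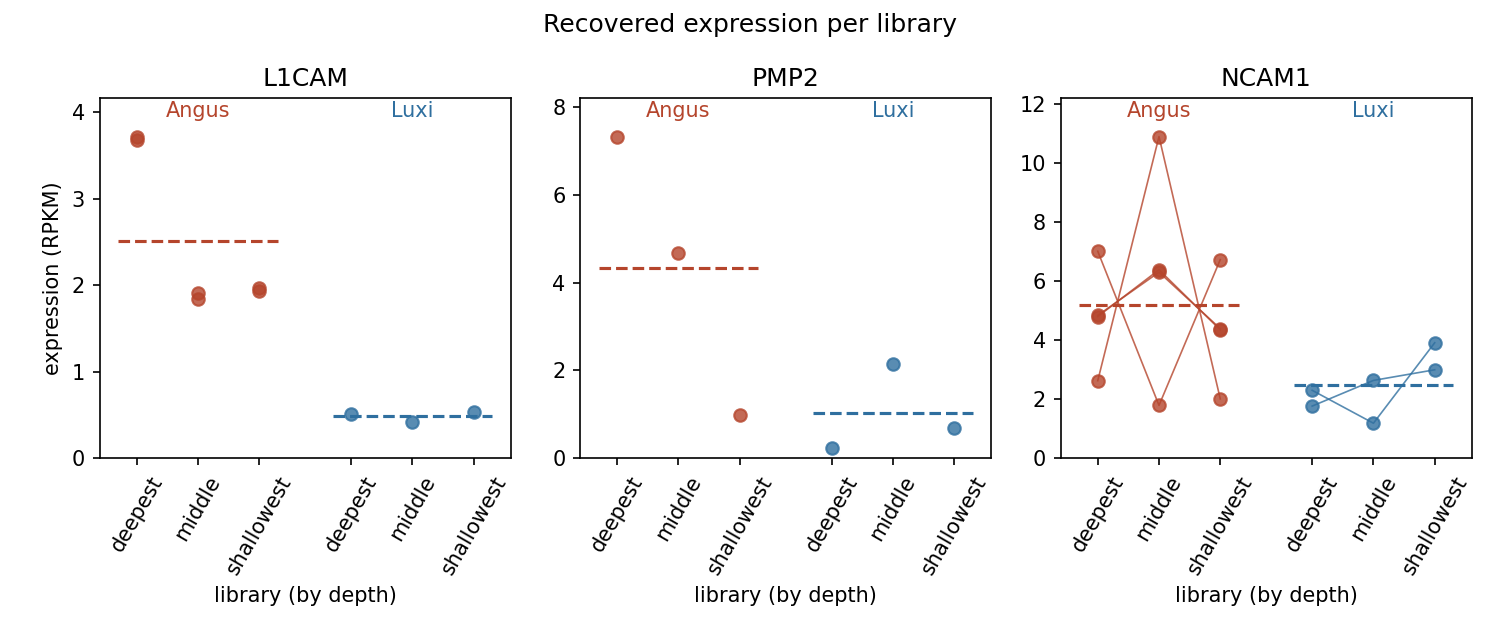
Recovered RPKM (y axis, linear from 0) of L1CAM, PMP2 and NCAM1 in the 3 Angus and 3 Luxi libraries, ordered by depth (x axis). Points are libraries under each possible solution, thin lines join the libraries of 1 solution of NCAM1 and dashed lines are breed means. L1CAM of Angus lies at 1.84 RPKM or more and of Luxi at 0.531 RPKM or less, PMP2 overlaps between the breeds, and NCAM1 has 4 Angus and 2 Luxi solutions.

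NCAM1 (gene identifier 281941, 4330 bases) had the smallest ratio and the most reads, 375 over the Angus and 188 over the Luxi libraries. The Angus libraries allowed 4 solutions. From deepest to shallowest these were 65, 263 and 47 reads, 119, 154 and 102 reads, 120, 152 and 103 reads, or 174, 43 and 158 reads. The Luxi libraries allowed 46, 67 and 75 reads or 60, 30 and 98 reads. Those with 154 or 152 reads in the middle library are even across the animals, and the others have a middle library far above or far below the rest.

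Separation of NCAM1 between the breeds therefore depended on the solution. With an even Angus solution the lowest Angus library had 4.34 or 4.38 RPKM, above the highest Luxi library at 2.99 or 3.903 RPKM. With an uneven one the lowest Angus library had 1.999 or 1.78 RPKM, below that Luxi library. The 8 pairs of solutions split evenly, 4 with all Angus libraries above and 4 with an overlap. The SD in Angus lay between 1.00 and 4.96 RPKM and in Luxi between 0.632 and 1.37 RPKM (n = 3 each). In every solution the shallowest Luxi library was the highest of its breed for NCAM1. PMP2, with its Luxi maximum in the middle library, did not share that order.

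The authors' deposited p for NCAM1 was 4.88e-07 and the FDR 1.83e-05. The log2 ratio was 1.07 with all libraries. Without the middle Angus library it lay between -0.090 and 1.48, so the direction was not determined there. Without any other single library it stayed positive, between 0.74 and 1.58. L1CAM and PMP2 had larger ratios than NCAM1 in the full data, and the difference between their ratios was not tested.

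**Figure D3:**
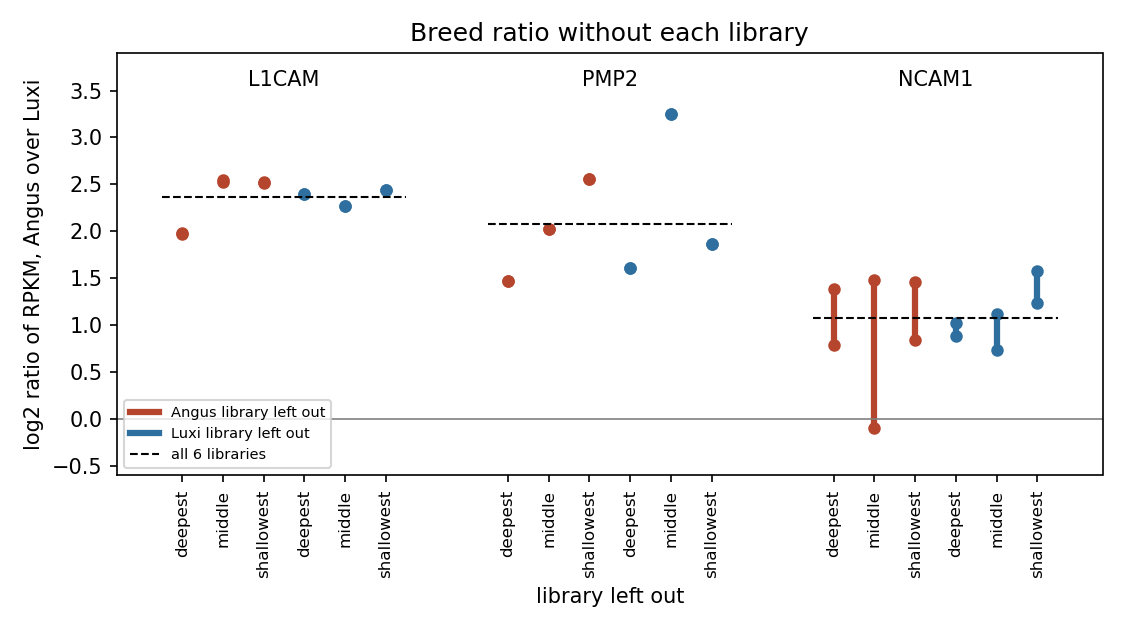
Log2 ratio of RPKM of Angus over Luxi (y axis) for L1CAM, PMP2 and NCAM1 with each of the 6 libraries left out in turn (x axis). Bars with end points give the range over the solutions, and dashed lines give the ratio with all libraries. L1CAM stays between 1.97 and 2.55, PMP2 between 1.47 and 3.25, and NCAM1 reaches -0.090 without the middle Angus library.

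A second entry of the authors' deposited table also bore on NCAM1. It is a cluster of expressed sequence tags of 944 bases with no gene symbol, whose deposited protein match is dog neural cell adhesion molecule 1 with an E-value of 9.78e-121. It was singled out after its values were seen, as the only symbol-less entry whose match names a member or a myelin protein. Its Angus libraries held 20, 15 and 10 reads from deepest to shallowest, or 3.69, 2.85 and 1.95 RPKM. All 3 Luxi libraries held 0 reads. A floor of 3 reads over the breed, or 0.179 RPKM, was set in place of 0. With that floor the cluster was 15.9-fold higher in Angus, while the NCAM1 entry was 2.10-fold higher. The 15.9-fold value rests on the chosen floor and leaves out the counting error of the 45 Angus reads, so it is not a lower bound.

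The cluster held 10.7% of the 420 Angus reads of both NCAM1 entries and 0 of the 188 Luxi reads. The authors' deposited p of the cluster was 1.91e-05 and the FDR 5.12e-04. Adding the counts of both entries gave a ratio of 2.37-fold per unit of depth, against 2.11-fold for the NCAM1 entry alone on the same scale. Whether the cluster is part of the NCAM1 transcript, and how reads that match both entries were counted, could not be read from the labels or the table. The part of that counting in either ratio was not tested. In the RefSeq gene table of assembly ARS-UCD2.0, used for names and neighbours alone, a tRNA gene and the long noncoding RNA LOC132342311 lie within the span of NCAM1. Whether the counting used strand is likewise not stated.

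Lists of genes related to the 3 were compared with the table. Of 23 nerve and Schwann cell genes 3 were listed, L1CAM, PMP2 and NCAM1 themselves. These are the genes chosen at the outset, so their ratios are no separate result on the list. The other 20 genes of the list, among them the myelin genes MBP, PMP22, MAG and PRX, the Schwann cell factors SOX10 and S100B and the neurofilaments, were not listed. No values of theirs were at hand. Of 20 neural adhesion molecules 2 were listed, L1CAM and NCAM1, and their relatives CHL1, NRCAM, NFASC and NCAM2 were not. Of 22 partners of L1CAM and NCAM1, such as integrins, ankyrins, the coreceptor NRP1, FGFR1 and the enzymes ST8SIA2 and ST8SIA4 that add polysialic acid to NCAM1, 0 were listed.

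PMP2 belongs to the fatty acid binding proteins, of which 2 of 15 in the list were listed. The other was FABP3, the form of heart and skeletal muscle, for which the authors' deposited table gives 155 RPKM for Angus and 51.6 RPKM for Luxi, a 3.01-fold ratio. In the RefSeq gene table PMP2 stands in a cluster with FABP5, FABP9, FABP4 and FABP12, and 0 of these 4 neighbours were listed, FABP4 of adipocytes among them.

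For NCAM1 the satellite cell and myogenic list had 1 of 17 genes listed, NCAM1 itself. The list of the neuromuscular junction and denervation had 3 of 22, with no acetylcholine receptor subunit among them. From the authors' deposited table, NCAM1 and the embryonic myosin MYH3 (2.74-fold) were higher in Angus, and GADD45A, a growth arrest gene induced by denervation, was 2.26-fold higher in Luxi. The libraries of MYH3 and of GADD45A overlapped between the breeds under every solution.

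Markers of other cell types were also listed, from lists chosen with earlier results of these data known. Of all 232 listed genes 63.4% were higher in Angus, the share to set beside each count. Muscle fibre genes had 3 of 20 listed, 2 higher in Angus and 1 higher in Luxi. MYL3 of slow fibres had 365 RPKM for Angus and 139 RPKM for Luxi, from the authors' deposited table. By the same table MYH4 was 28.2-fold higher in Angus and ACTC1 3.47-fold higher in Luxi. The libraries of ACTC1 overlapped between the breeds, and for MYL3 and MYH4 overlap was not determined. The largest share of a single library in the Angus reads of MYH4 could lie anywhere from 34.5% to 96.6%. The labelled tissue thus carried fibre transcripts in both breeds. Adipocyte genes had 2 of 10, both higher in Angus, and CIDEC of lipid droplets held 56, 31 and 3 reads in the Angus libraries from deepest to shallowest and 0 in Luxi. The Angus order of CIDEC was that of PMP2. Epithelial genes had 2 of 7, KRT8 and KRT19, both higher in Angus. Immune cell genes had 6 of 18, of which 5 were higher in Angus, the member NCAM1 and the mast cell genes TPSB1, CPA3 and KIT among them. The deepest Angus library, the highest for L1CAM and PMP2, held 76.1% of the Angus reads of TPSB1, 64.7% of those of CPA3 and 77.7% to 78.2% of those of KIT. The middle Angus library was the lowest for these mast cell genes, with 5.97% of TPSB1, 8.40% of CPA3 and 6.09% to 7.11% of KIT. For PMP2 that library held 35.5%, more than the shallowest. Connective tissue genes had 2 of 13, COMP and PRG4, both higher in Luxi as breed means. The deepest Luxi library held 51 of the 64 Luxi reads of COMP and 148 of the 164 of PRG4. The other two Luxi libraries held 6 and 10 reads of PRG4, against 6 to 12 in the Angus libraries, so the direction of PRG4 rested on that library. Endothelium (9 genes) and smooth muscle (8 genes) had 0 listed. The part of these cell types in the values of L1CAM, PMP2 and NCAM1 was not tested.

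The genes most like PMP2 over the 6 libraries were 2 keratins and TMEM98. Likeness was the Pearson correlation of log2(RPM + 1) among the 39 other genes with a symbol and known reads in all libraries. It was 0.93 for KRT8, 0.91 for KRT19 and 0.89 for TMEM98, against a median of 0.51, with Spearman's rho of 0.94, 0.71 and 0.89. KRT8 and KRT19 are keratins of simple epithelia, and TMEM98 is a membrane protein. The genes were all listed for a breed difference and share the same 6 libraries and depths, so these values describe a pattern.

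In reads from deepest to shallowest, KRT8 had 106, 86 and 23 in Angus and 6, 15 and 7 in Luxi. KRT19 had 51, 61 and 4 in Angus and 8, 20 and 5 in Luxi. TMEM98 had 27, 33 and 9 in Angus and 2, 5 and 4 in Luxi. In PMP2 and these 3 genes alike, the shallowest Angus library was the lowest of its breed and the middle Luxi library the highest of its breed. The 3 genes were picked for their likeness to PMP2 over these same libraries, so a shared order follows in part from that choice.

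**Figure D4:**
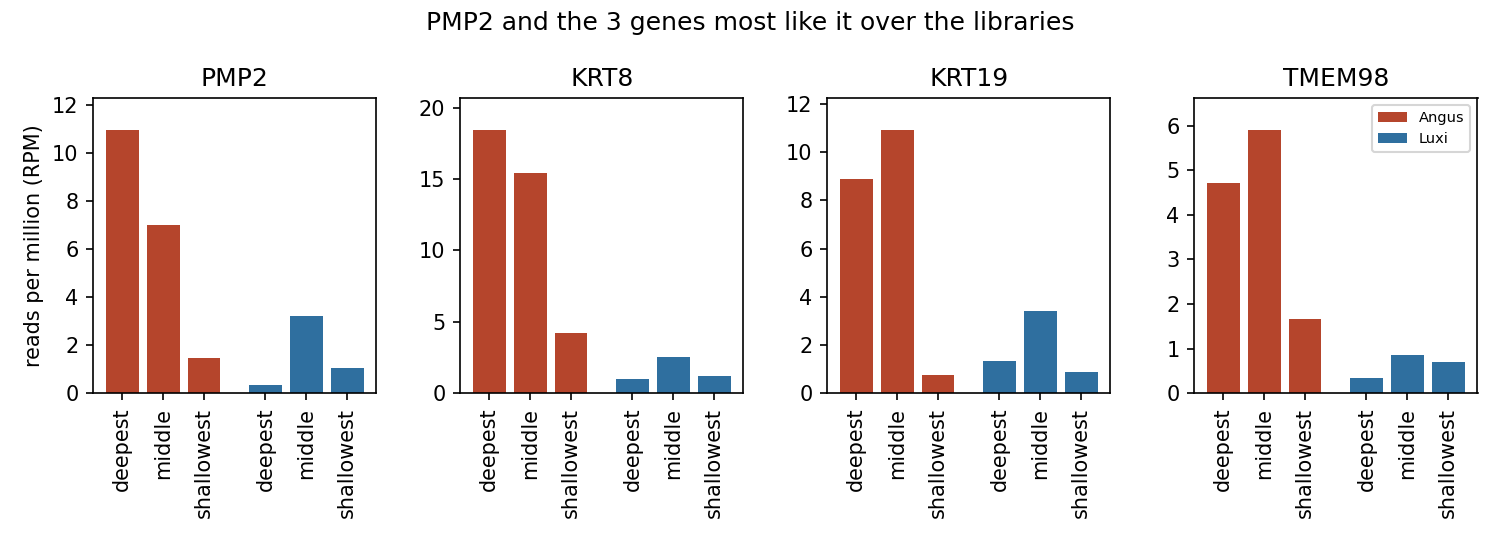
RPM, reads scaled to depth (y axis, from 0, scaled per panel) of PMP2, KRT8, KRT19 and TMEM98 in the 3 Angus and 3 Luxi libraries, ordered by depth (x axis), each bar 1 library. In each panel the shallowest Angus bar is the lowest of Angus (1.47 RPM for PMP2, 0.737 for KRT19) and the middle Luxi bar the highest of Luxi (3.23 for PMP2, 3.40 for KRT19). KRT8, KRT19 and TMEM98 were picked for their likeness to PMP2 over these libraries.

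Other genes were closest to L1CAM. The Angus reads of L1CAM had 2 solutions, so its likeness was computed for both, a step added after the data were seen. Under both, the highest Pearson correlations among 40 genes were those of PCBD1 (0.97), TRMT12 (0.96) and MLC1 (0.94), against a median of 0.78 or 0.79. Spearman's rho was 0.77, 0.88 and 0.88 in the same order, so by rho PCBD1 was the lowest of the 3. PCBD1, an enzyme of tetrahydrobiopterin recycling, had 49, 39 and 29 reads in Angus and 6, 4 and 3 in Luxi. MLC1, a membrane protein of astrocytes in the brain, had 24, 22 and 28 reads in Angus and 0 in Luxi. TRMT12, a tRNA modifying enzyme, had 19, 16 and 18 reads in Angus and 0 in Luxi. These are genes whose Angus libraries were all above their Luxi libraries.

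The evenness of the Angus libraries also set L1CAM and PMP2 against the list. Of the Angus reads of L1CAM 50.0% to 50.5%, and of those of PMP2 57.3%, came from the deepest library. The largest share of a single library was fixed within 1 percentage point for 77 listed genes, in the breed where each was higher, and had a median of 60.5%. Of these genes 24 had a share no larger than that of L1CAM, itself included, and 35 one no larger than that of PMP2. The same share of NCAM1 could lie anywhere from 40.5% to 70.1%.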

How the data were processed

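RNA of muscle from 3 Angus and 3 Luxi cattle was sequenced from 1 microgram of total RNA on a HiSeq2000, per the labels' protocols. For the aligner, gene set, counting rule, strandedness and statistical test, the labels and the file name none. Per the file headers, the authors deposited a count and an RPKM per breed, a log2 ratio (Luxi over Angus, turned here to Angus over Luxi), a p-value and an FDR. Deposited counts were multiples of 1/3 and were taken as means of raw counts. A deposited RPKM of 0.001 stood for 0 reads. The largest deposited p was 3.86e-05 and the largest FDR 9.67e-04.

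The mean RPKM weights the reads of each library by its depth, so a search over depths (Python with numpy 2.4.6 and numba 0.67.0) found the whole-number reads per library that give both means. In each breed 1 set of depths remained, each within 4.5 reads, and it solved all 210 Angus and 207 Luxi genes with reads, 82 and 56 of them with a single solution. In 6 of 6 simulated tables with 1251 genes the depths were found within 10 reads, and 491 of 491 single solutions were true. Ranges cover all solutions. Poisson intervals are exact (scipy 1.17.1) at 95% and cover counting error alone.

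The members, 13 gene lists (195 genes, 20 of them listed) and all rules were chosen with earlier results of these data known. Named were the members, listed genes of those lists, and for PMP2 the 3 genes most alike over the libraries. Whatever lies outside that rule is said to have been chosen after its values were seen. Alternatives were another scale, pseudocounts, medians and leaving out each library. All 3 members matched the RefSeq gene table by identifier and symbol. No build is named for the files, so no coordinates are given. Some genes of the lists and the table are not reported here.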

Additional observations from a re-analysis of the deposited data

How the results depend on the processing

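L1CAM and PMP2 stayed higher in Angus under every alternative run, and NCAM1 did so except under some solutions without the middle Angus library or with medians. The log2 ratio of L1CAM, 2.37 as deposited, was 1.24 with a pseudocount of 1 RPKM, which shrinks low genes by construction, and 1.92 to 1.95 with the median of the 3 libraries in place of the mean. Leaving out each library gave 1.97 to 2.55 for L1CAM, 1.47 to 3.25 for PMP2 and -0.090 to 1.58 for NCAM1. With medians NCAM1 lay between -0.0055 and 1.55. Of 47 values recomputed for the 3 genes and the list count, 38 moved by less than the spread between libraries (for the count, less than 1.5 times), 7 moved by more and 2, both of NCAM1, turned sign. The 20 listed genes of the lists were 20 at 1 RPKM or more and 17 with reads in both breeds. The labels name no pairing of Angus with Luxi animals, so no paired analysis was run. Luxi libraries held 2 to 19 reads of PMP2 and 12 to 15 of L1CAM, which limits the precision of single libraries.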

Other observations

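Other neural genes of the table, chosen after their values were seen, did not share one library pattern. TUBB3, a tubulin typical of neurons, held 1, 85 and 59 reads in the Angus libraries from deepest to shallowest and 0 in Luxi, so the Angus library that was highest for L1CAM and PMP2 was nearly empty of it. SYT4, a synaptotagmin of neurons and neuroendocrine cells, held 49 or 50, 21 to 23 and 47 or 48 reads in Angus and 0 in Luxi. IGDCC4, a membrane protein with immunoglobulin domains, held 99, 60 and 40 reads in Angus and 36, 22 and 10 in Luxi, a 3.10-fold ratio from the RPKM of the authors' deposited table. NPTX1, a secreted pentraxin of neurons, went the other way, since the authors' deposited table gives it 1.91 RPKM for Angus and 5.65 RPKM for Luxi. Its Angus libraries held 48, 17 and 1 reads. CDH22, a cadherin, was listed at 0 for Angus and at 0.951 RPKM for Luxi, from 1, 38 and 15 reads.

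The deposited gene ontology terms name the axon for 3 listed genes, L1CAM, NCAM1 and the nuclear receptor NR4A2, all higher in Angus. Of the 148 listed genes with any term 98 were higher in Angus. Cell-cell adhesion was named for 5 listed entries, of which 4 were higher in Angus. These 4 were L1CAM, NCAM1, ADIPOQ and the cluster of expressed sequence tags whose protein match is neural cell adhesion molecule 1. Whether that cluster and NCAM1 are the same gene was not tested, so the 4 entries are not known to be 4 separate genes. PMP2 carried none of these terms.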
